A study of Mus musculus with 6 samples.

Results

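The genes described are the 2 receptors and 4 ligands of platelet-derived growth factor (PDGF), namely Pdgfra, Pdgfrb, Pdgfa, Pdgfb, Pdgfc and Pdgfd. Their members were the probe sets of a mouse expression array whose only annotated gene symbol is one of these 6 names, which gave 14 of 44991 probe sets, 5 for receptors and 9 for ligands. The arrays held RNA of haematopoietic stem cells (HSC) sorted by flow cytometry from mouse bone marrow. One group was wildtype and the other came from PU.1 knockdown animals, with 3 arrays a group and RNA pooled from 3 animals on each array. PU.1 is the protein of the Spi1 gene, a transcription factor with an ETS domain that myeloid and B lymphoid cells need. The sources used here name neither strain, age nor sort markers, nor how PU.1 was reduced. The genes were picked with the knockdown against wildtype result of these arrays known, so their values in that contrast are a description and carry no test.

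PDGF ligands are secreted dimers that bind receptor tyrosine kinases on the cell surface. The ligands encoded by Pdgfa and Pdgfb are stored in the alpha granules of platelets, whereas those of Pdgfc and Pdgfd carry a CUB domain that a protease must remove before they bind. The receptors encoded by Pdgfra and Pdgfrb pair on binding, phosphorylate each other and recruit adaptors of the Ras and phosphoinositide 3-kinase pathways. They belong to the same receptor class as Kit and Flt3, which mark blood stem and progenitor cells, and are themselves best known from fibroblasts, pericytes and other mesenchymal cells.

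The receptor gene Pdgfrb had the largest difference of the 6 genes, with higher values in every knockdown pool than in any wildtype pool on both of its probe sets. On the other 12 probe sets the differences lay between -0.36 and 0.36 on the log2 scale. Values are given as the deposited linear intensity of each array. Differences are knockdown minus wildtype in log2(intensity + 16) after quantile normalisation, with the standard error (SE) of a limma fit over all probe sets. Because 16 is added, folds of dim probe sets are understated. Intensities of different probe sets depend on their probes and are not compared with each other.

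Of the 14 probe sets, 4 had groups that did not overlap, 3 with the knockdown pools higher and 1 with them lower. Over all 44991 probe sets the groups did not overlap for 12.9%, with the knockdown higher for 7.59% and lower for 5.26%. At a limma p adjusted by Benjamini-Hochberg under 0.05, 0 of the 14 passed, as did 0% of all probe sets, and at an unadjusted p under 0.05 there were 2, both of Pdgfrb and higher, beside 7.11% of all, 3.78% higher. The 14 differences had a median of 0.079, beside 0.009 over all probe sets. No filter on low values was applied, so all 14 were fitted. The knockdown mean was the higher one for 8 and the lower one for 6, beside 51.7% and 48.3% of all probe sets. In 10 of them the mean lay at or below the median of all probe sets; the 4 above it belonged to Pdgfrb, Pdgfa, Pdgfb and Pdgfc, with 1 probe set each.

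**Figure D1:**
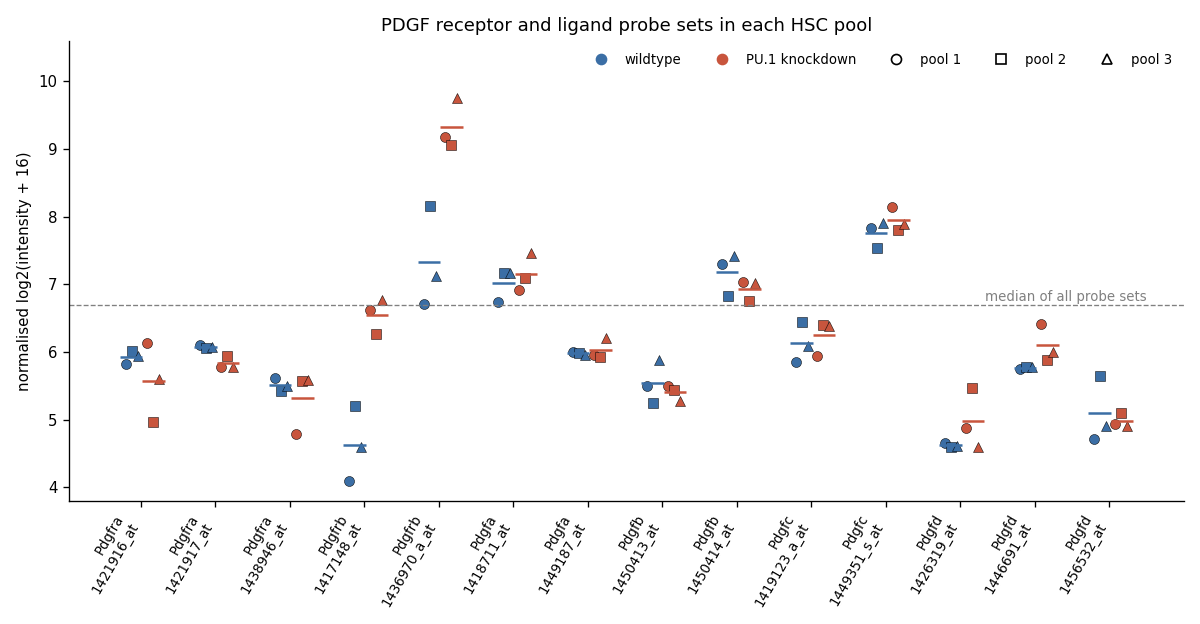
Normalised log2(intensity + 16) of the 14 probe sets (x axis) in each HSC pool, with wildtype in blue, PU.1 knockdown in red, a marker shape for each pool number and a short line at each group mean. The 2 Pdgfrb probe sets stand apart, with all knockdown pools above all wildtype pools; the dashed line is the median of all probe sets at 6.70.

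The targeted gene was checked first. Spi1 (1418747_at) read 1120, 718 and 1053 intensity units for wildtype pools 1, 2 and 3, against 362, 360 and 119 for knockdown pools 1, 2 and 3, with no overlap. The array medians ran from 81.4 to 91.5 intensity units. All 7 HSC markers measured, out of 9 listed, were brighter on average than the table's median probe set, and their summed intensity was 6222 to 12367 in wildtype and 6582 to 7838 in knockdown pools. The 9 granulocyte markers were also brighter on average than that median, with sums of 18221 to 52575 in wildtype and 35305 to 44483 in knockdown pools. Their directions were split, with 5 higher and 4 lower in the knockdown pools. Camp and Ngp were higher by 1.08 (SE 0.41) and 1.08 (SE 0.37), without overlap. Epx and Prg2 differed by -3.69 (SE 0.88) and -3.06 (SE 0.74), also without overlap, and Epx read only 31.0 in knockdown pool 3.

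Pdgfrb encodes the receptor that binds PDGF-B and PDGF-D dimers. On its brighter probe set, 1436970_a_at, wildtype pools 1, 2 and 3 read 90.7, 289 and 125 intensity units, whereas knockdown pools 1, 2 and 3 read 496, 527 and 871. The highest wildtype pool was pool 2, the highest knockdown pool was pool 3, and the groups did not overlap. The normalised log2 values averaged 7.33 ± 0.75 in wildtype and 9.33 ± 0.37 in knockdown pools (SD, n = 3), a difference of 2.00 (SE 0.37) or 3.99-fold on that scale. A difference of at least this size in either direction was seen for 0.124% of all probe sets. With 1 array left out the difference ran from 1.69 to 2.41. In pooled RNA such as this, more cells that carry a transcript and more RNA per cell cannot be told apart.

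The dimmer Pdgfrb probe set, 1417148_at, gave -2.31, 20.7 and 8.34 in wildtype pools 1, 2 and 3, against 76.3, 59.5 and 93.7 in knockdown pools 1, 2 and 3. The wildtype values were close to 0 intensity units and 1 of them was below it. As on the other probe set, pool 2 was the highest of the wildtype pools and pool 3 the highest of the knockdown pools. The normalised log2 values were 4.63 ± 0.56 and 6.55 ± 0.25 (SD, n = 3), a difference of 1.92 (SE 0.28). This size depended on the constant added before the logarithm, with 3.41 after adding 1 and 0.95 after adding 64.

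**Figure D2:**
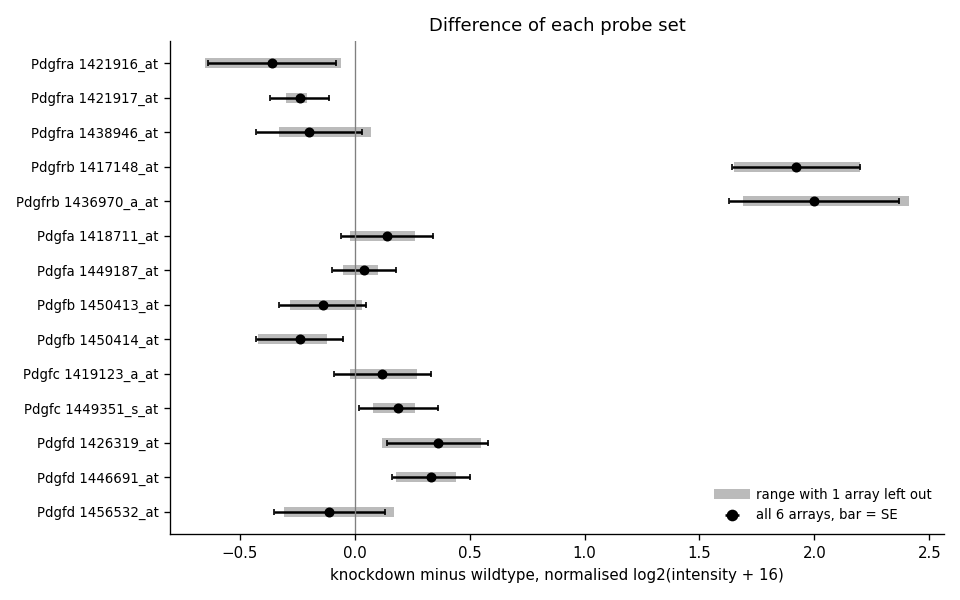
Knockdown minus wildtype difference of each probe set in normalised log2(intensity + 16) on the x axis, with points for all 6 arrays, bars for the SE and grey bands for the range with 1 array left out. The Pdgfrb probe sets lie at 1.92 and 2.00, and all others between -0.36 and 0.36.

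Pdgfrb is a marker of pericytes and other stromal cells, so lists of such markers were read on the same arrays. Of 8 pericyte and smooth muscle markers, 5 had higher and 3 had lower means in the knockdown pools, with a median difference of 0.048. Their summed intensity was 691 to 806 in wildtype and 686 to 729 in knockdown pools. Of the 8, 5 were brighter on average than the table's median probe set, and Tagln, which encodes a smooth muscle actin-binding protein, lay between -8.37 and 10.9 on all arrays. The intermediate filament gene Des was the only one of the 8 whose groups did not overlap, with the knockdown pools higher by 0.16 (SE 0.13). The knockdown pools lay above all wildtype pools for 7.59% of all probe sets, and another Des probe set had -0.20. Of 9 mesenchymal and fibroblast markers, 4 were higher and 5 lower, with a median difference of -0.141. Their sum was 1828, 903 and 5493 in wildtype pools 1, 2 and 3, against 3538, 1062 and 3022 in knockdown pools 1, 2 and 3, led by the collagen gene Col1a2. The mesenchymal sums of the 2 groups overlapped, with the highest in wildtype pool 3 and the lowest in wildtype pool 2. Of 8 endothelial markers, 4 were higher and 4 lower. Among them only Kdr had groups that did not overlap, with the knockdown pools lower by -0.99 (SE 0.23), as the pools lay for 5.39% of all genes. Egfl7 went the other way, with a difference of 0.62 (SE 0.29) and overlapping groups. The part of stromal or endothelial RNA in the Pdgfrb values was not tested.

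**Figure D3:**
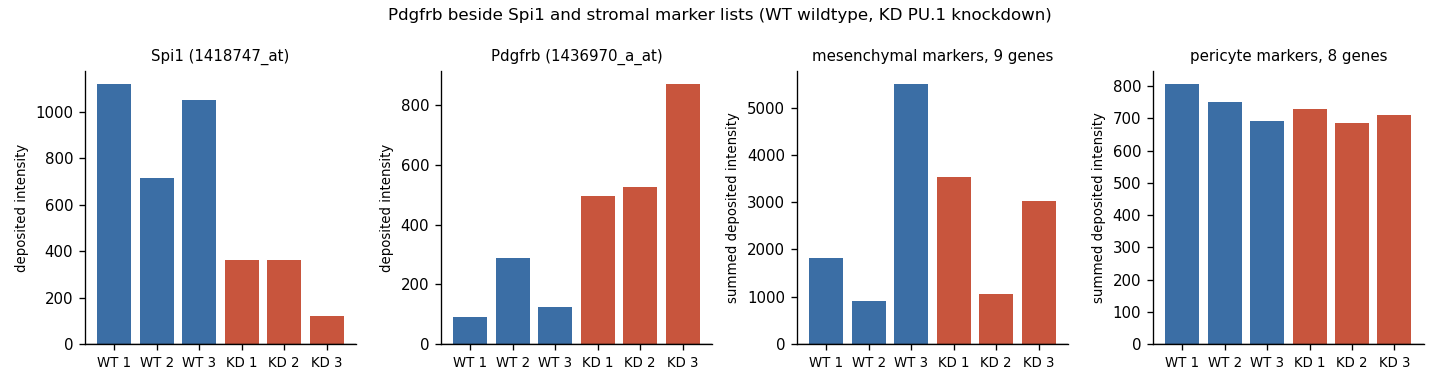
Deposited intensity of Spi1 and Pdgfrb, and summed deposited intensity of the mesenchymal and the pericyte marker lists (y axes, from 0), in each wildtype (blue) and PU.1 knockdown (red) pool. Pdgfrb is high in all 3 knockdown pools. The pericyte sum lies between 686 and 806, and the mesenchymal sum is highest in wildtype pool 3. The part of stromal RNA in the Pdgfrb values was not tested.

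Pdgfra encodes the receptor that binds most PDGF dimers, and all 3 of its probe sets had means below the median of all probe sets. On 1421917_at it read 53.9, 51.1 and 53.3 in wildtype pools 1, 2 and 3, against 36.8, 44.2 and 39.5 in knockdown pools 1, 2 and 3. The groups did not overlap, with the knockdown pools lower, and the gap between them was 0.11 on the log2 scale. The difference was -0.24 (SE 0.13), from 6.08 ± 0.02 to 5.83 ± 0.10 (SD, n = 3). On 1421916_at the groups overlapped, with 41.2, 49.1 and 47.5 in wildtype and 50.7, 15.0 and 32.7 in knockdown pools 1, 2 and 3. Its difference was -0.36 (SE 0.28), and it was -0.06 without knockdown pool 2. The probe set 1438946_at also overlapped, at 26.7 to 33.7 in wildtype and 11.4 to 31.9 in knockdown pools. Its difference of -0.20 (SE 0.23) came from knockdown pool 1, and without that pool it was 0.07. The receptors thus had differences of opposite sign, with Pdgfrb higher and Pdgfra lower in the knockdown pools, although for Pdgfra the sizes were small and most probe sets overlapped.

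Promoter sequences are shown for the members found in the part used of a RefSeq promoter table of build GRCm38.p6. That part left out a chromosome. The sequences are given because the knocked-down factor is an ETS protein that reads the core GGAA. Of the 6 genes 4 were matched in that part, Pdgfra, Pdgfa, Pdgfc and Pdgfd. Each line gives the 250 bases before the annotated start site, 5′ to 3′ on the strand of the gene, with every ETS core (GGAA, or TTCC where it lies on the opposite strand) in capitals. Pdgfra lies on the plus strand at chr5:75152001-75152250, Pdgfa on the minus strand at chr5:138994945-138995194, Pdgfc on the plus strand at chr3:81036166-81036415 and Pdgfd on the plus strand at chr9:6168236-6168485.
Pdgfra: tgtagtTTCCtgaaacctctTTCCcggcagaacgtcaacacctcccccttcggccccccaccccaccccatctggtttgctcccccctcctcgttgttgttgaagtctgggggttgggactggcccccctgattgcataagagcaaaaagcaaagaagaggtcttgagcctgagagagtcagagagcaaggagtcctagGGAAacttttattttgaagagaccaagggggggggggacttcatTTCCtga
Pdgfa: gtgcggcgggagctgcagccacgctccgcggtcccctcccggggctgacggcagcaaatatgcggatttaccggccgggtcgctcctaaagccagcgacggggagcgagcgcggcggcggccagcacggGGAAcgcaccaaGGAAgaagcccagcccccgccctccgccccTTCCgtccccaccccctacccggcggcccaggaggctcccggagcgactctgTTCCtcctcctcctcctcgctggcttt
Pdgfc: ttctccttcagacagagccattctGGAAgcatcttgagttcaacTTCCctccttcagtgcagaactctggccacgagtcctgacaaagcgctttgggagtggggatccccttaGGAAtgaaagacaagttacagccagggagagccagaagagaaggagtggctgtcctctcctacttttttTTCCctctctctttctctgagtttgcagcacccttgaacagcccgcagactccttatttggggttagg
Pdgfd: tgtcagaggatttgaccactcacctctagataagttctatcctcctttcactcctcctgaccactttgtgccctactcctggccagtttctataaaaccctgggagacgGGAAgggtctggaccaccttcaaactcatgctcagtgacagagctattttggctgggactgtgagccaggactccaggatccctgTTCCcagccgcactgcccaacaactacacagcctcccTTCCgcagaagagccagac

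Motifs were searched on both strands of windows of 300 bases, 250 before and 50 after the start site. The ETS core GGAA was found 4 times for Pdgfra, 4 times for the Pdgfa window shown, 7 times for Pdgfc and 3 times for Pdgfd. It was found at least once in 96% of the 32851 promoter windows outside chr18, called all windows below. Pdgfrb and Pdgfb had no window in this set, so their promoters were not searched. Their absence from the set does not mean that they have no annotated promoter. The PU.1 box GAGGAA, which contains the core, was present on the opposite strand at position -27 of the Pdgfa window and at position 41 after the start of Pdgfc, beyond the stretch printed. It was in 28.3% of all windows. Neither Pdgfra nor Pdgfd held a PU.1 box in its window, and none of the 4 held the AP-1 site TGANTCA, found in 7.81% of all windows. These are matches of letters only. Pdgfa had a second annotated window, with 4 ETS cores and no PU.1 box.

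Among the ligands, Pdgfb encodes the B chain, the main ligand of the receptor made by Pdgfrb. Its brighter probe set, 1450414_at, gave 145, 102 and 156 in wildtype pools 1, 2 and 3, against 106, 89.3 and 115 in knockdown pools 1, 2 and 3. Wildtype pools 1 and 3 were the highest, while wildtype pool 2 lay among the knockdown pools, so the groups overlapped. The difference was -0.24 (SE 0.19), from 7.18 ± 0.32 to 6.94 ± 0.16 (SD, n = 3), and it ran from -0.42 to -0.12 with 1 array left out. The dim probe set 1450413_at read 22.0 to 44.9 in wildtype and 22.9 to 28.1 in knockdown pools. Its difference was -0.14 (SE 0.19) and turned to 0.03 without wildtype pool 3.

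The 8 platelet markers measured summed to 15893, 7790 and 15701 in wildtype pools 1, 2 and 3, against 8205, 2671 and 8189 in knockdown pools 1, 2 and 3. Of these markers 7 were lower in the knockdown pools, and the median difference was -1.303. Pools 1 and 3 of the wildtype group were thus highest for the platelet sum as for Pdgfb, and knockdown pool 2 was lowest for both. The part of platelet RNA in the Pdgfb values was not tested.

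Pdgfa encodes the A chain, which binds the receptor made by Pdgfra. On 1418711_at it read 93.3, 135 and 130 in wildtype pools 1, 2 and 3, against 96.6, 117 and 164 in knockdown pools 1, 2 and 3. Pool 1 was lowest in either group and the groups overlapped. The difference was 0.14 (SE 0.20), and it was -0.01 without wildtype pool 1 and -0.02 without knockdown pool 3. The platelet sum, at its highest in wildtype pool 1 where Pdgfa was lowest, did not share this order. The probe set 1449187_at was nearly flat, at 47.9 to 49.2 in wildtype and 42.9 to 58.4 in knockdown pools (difference 0.04, SE 0.14).

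**Figure D4:**
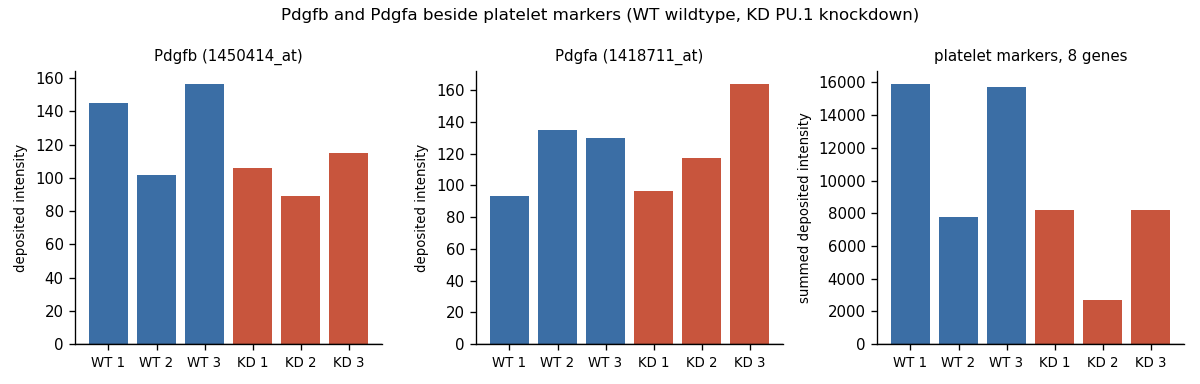
Deposited intensity of Pdgfb and Pdgfa and the summed deposited intensity of 8 platelet markers (y axes, from 0) in each wildtype (blue) and PU.1 knockdown (red) pool. For Pdgfb and for the platelet sum, wildtype pools 1 and 3 are highest and knockdown pool 2 is lowest, an order that Pdgfa does not show.

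Pdgfc encodes a ligand that is activated by tissue plasminogen activator. Its brighter probe set, 1449351_s_at, read 215, 183 and 224 in wildtype pools 1, 2 and 3, against 241, 205 and 225 in knockdown pools 1, 2 and 3. The values overlapped, pool 2 was lowest in either group, and the difference was 0.19 (SE 0.17), from 7.76 ± 0.19 to 7.95 ± 0.18 (SD, n = 3). With 1 array left out it was 0.08 to 0.26. The other probe set, 1419123_a_at, read 42.5 to 73.1 in wildtype and 42.8 to 68.4 in knockdown pools. Its difference of 0.12 (SE 0.21) turned to -0.02 without wildtype pool 1.

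Pdgfd encodes a ligand of the receptor made by Pdgfrb and is activated by urokinase. Its 3 probe sets were dim, with means below the median of all probe sets. On 1446691_at the wildtype pools were close together at 38.6, 39.4 and 40.2, and the knockdown pools read 64.7, 41.6 and 48.6. The groups did not overlap, but knockdown pool 2 lay only 0.10 above the highest wildtype pool on the log2 scale. The difference was 0.33 (SE 0.17), and 0.18 without knockdown pool 1. On 1426319_at the wildtype pools read 8.02 to 9.67 and the knockdown pools 13.2, 27.3 and 7.63, a difference of 0.36 (SE 0.22) that was 0.12 without knockdown pool 2. On 1456532_at the sign was opposite, at -0.11 (SE 0.24), with the highest value of 34.4 in wildtype pool 2; without that pool it was 0.17. The 3 probe sets of Pdgfd therefore did not share a direction.

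Genes of the pathway outside the family came from 5 lists chosen by role, of which 67 of 76 genes were measured, each by its brightest probe set. Of these, 29 had higher and 38 lower means in the knockdown pools, beside 53.4% and 46.6% of all 18186 genes, with a median difference of -0.040, and 0 passed an adjusted limma p under 0.05, as did 0% of all genes. At an unadjusted p under 0.05 there were 10, 2 higher and 8 lower, beside 7.63% of all genes, 4.10% higher and 3.52% lower. Of the 8 lower genes, 5 were in the list of induced targets, whose values in these arrays were known when the list was written.

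Genes that process PDGF ligands or act as co-receptors had 5 of 10 higher and 5 lower, and 0 had an unadjusted p under 0.05. Plat, the activator of PDGF-C, had a difference of 0.22 (SE 0.18), and Plau, which encodes urokinase, of 0.10 (SE 0.16). The co-receptor gene Nrp1 differed by 0.43 (SE 0.38), with 51.1 in knockdown pool 1 and 183 in knockdown pool 2. St14, which encodes the membrane protease matriptase, had -0.45 (SE 0.22), Pcsk5, a proprotein convertase gene, had -0.14 (SE 0.15), and Lrp1, which encodes an endocytic receptor, had -0.06 (SE 0.16).

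Among 28 adaptors and effectors, 12 were higher and 16 lower. Pik3r2, a regulatory subunit of phosphoinositide 3-kinase, had a difference of 0.33 (SE 0.14), with an unadjusted limma p of 0.0464 and an adjusted p of 0.695. Src, the tyrosine kinase that docks on activated PDGF receptors, had -0.56 (SE 0.22, adjusted p 0.676). The adaptor genes Nck1 and Crkl had 0.41 (SE 0.19) and 0.32 (SE 0.18), but their other probe sets reached -0.13 and -0.32. The phosphatase gene Ptpn11 and the adaptor gene Nck2 had -0.29 (SE 0.15) and -0.48 (SE 0.27), and another Ptpn11 probe set had 0.31.

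Of 9 inhibitors and phosphatases, 4 were higher and 5 lower, and for 3 the knockdown pools lay below all wildtype pools, as they did for 5.39% of all genes. Cbl, which encodes the ubiquitin ligase that targets activated receptors for degradation, read 1050, 903 and 1059 in wildtype and 583, 709 and 733 in knockdown pools 1, 2 and 3. Its difference was -0.49 (SE 0.15), with a limma p of 0.0110 and an adjusted p of 0.574, and its 3 probe sets ran from -0.49 to -0.03. Sla, an adaptor that dampens receptor signalling in blood cells, read 1666, 1291 and 1584 in wildtype and 1106, 820 and 467 in knockdown pools 1, 2 and 3, a difference of -0.94 (SE 0.33, adjusted p 0.650). Ptpn2, a tyrosine phosphatase gene, had -0.54 (SE 0.33), and only -0.12 without knockdown pool 1. The 4 probe sets of Ptpn2 ran from -0.54 to 0.03, and the 4 of Sla from -0.94 to -0.20. All 9 monocyte and macrophage markers had lower knockdown means, with sums of 3915 to 5552 in wildtype and 2410 to 3878 in knockdown pools. Csf1r and Ms4a7 were nearly flat, with folds of 0.997 and 0.993. Only for Ctss did the groups not overlap, at 1738 to 2970 in wildtype and 488 to 1538 in knockdown pools. The part of these markers in the Sla and Cbl values was not tested. Sh2b3, Rasa1 and Cblb had 0.12 (SE 0.22), 0.09 (SE 0.21) and 0.05 (SE 0.17), and each changed sign in at least 1 of 16 alternatives.

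Of 14 genes that PDGF is known to induce in fibroblasts, 6 were higher and 8 lower, with a median difference of -0.193. The lower genes with the smallest p were Egr1, Jun and Junb, which encode transcription factors of the immediate early response. Their differences were -1.23 (SE 0.21), -1.13 (SE 0.23) and -0.69 (SE 0.15). For each of these 3 genes the knockdown pools lay below all wildtype pools, but the adjusted limma p values of 0.382, 0.426 and 0.473 did not pass. Myc had a difference of 0.46 (SE 0.14), while Klf10 and Ccnd1 had 0.19 (SE 0.25) and 0.09 (SE 0.16). The summed intensity of these targets was 13815 to 15760 in the knockdown pools, below the 19052 to 23391 of the wildtype pools. The sum over all 67 pathway genes, which include these targets, was lower too, at 45797 to 48229 against 54175 to 62396. Both sums are of deposited values, not normalised between arrays. The array medians were also lower in the knockdown pools, at 81.4 to 89.0 against 90.0 to 91.5 in wildtype. After normalisation the mean log2 value of the 67 genes was 8.87 to 8.92 in knockdown and 8.97 to 9.02 in wildtype pools. Both the list of induced targets and Pdgfrb were chosen with their values known, and a link between them was not tested.

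Among relatives of the PDGF receptors and their ligands, 2 of 6 genes were higher and 4 lower, and 0 had an unadjusted p under 0.05. Kit, the stem cell factor receptor gene, read 1307, 2326 and 1440 in wildtype and 1279, 1172 and 1213 in knockdown pools 1, 2 and 3, a difference of -0.39 (SE 0.23). Wildtype pool 2 was the highest for Kit as it was among wildtype pools for Pdgfrb, yet the knockdown pools were not higher for Kit. Flt3 and Csf1 had -0.08 (SE 0.40) and -0.06 (SE 0.26), and Il34 and Kitl had 0.08 (SE 0.14) and 0.07 (SE 0.14).

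**Figure D5:**
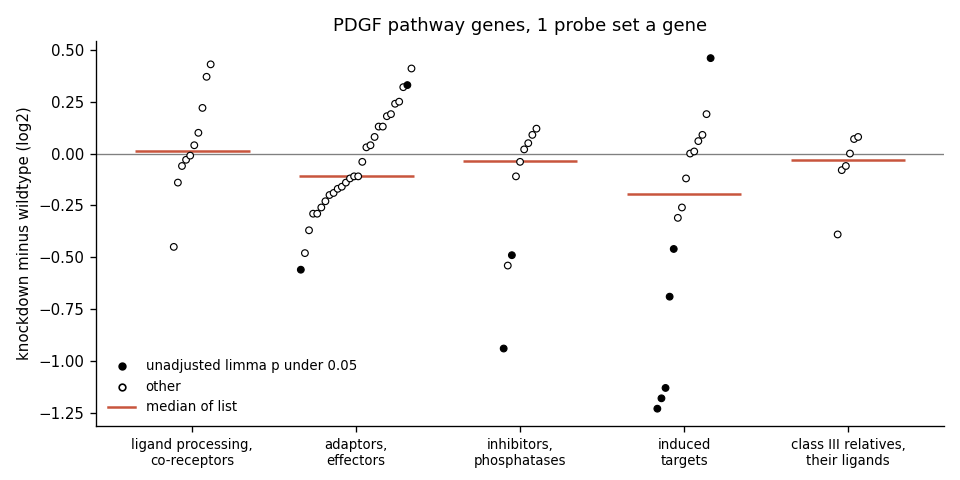
Knockdown minus wildtype difference on the log2 scale (y axis) of the 67 measured pathway genes in 5 lists, with 1 point a gene, filled where the unadjusted limma p was under 0.05, and a red line at each list's median. The 10 filled points lie mostly among the induced targets, and 0 of the 67 genes passed after adjustment.

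Genes whose values followed a member most closely over the 6 arrays were taken from 12005 genes brighter on average than the table's median probe set, by Pearson correlation of the normalised log2 values. With 6 arrays these r values are a description with no p, and where the groups do not overlap they follow the group difference. For Pdgfrb the closest were Lypd6b (r = 0.995), Spred1 (r = 0.993), which encodes an inhibitor of Ras signalling, and Gpr65 (r = 0.992), which encodes a proton-sensing receptor. Gpr65 read 198, 362 and 225 in wildtype and 499, 628 and 747 in knockdown pools 1, 2 and 3. A like order of arrays follows from the way these genes were picked. Spred1 differed by only 0.31 (SE 0.13), a much smaller range than Pdgfrb with a like order of arrays.

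For Pdgfb the closest genes were Atp6v1b2 (r = 0.998), which encodes a subunit of the vacuolar proton pump, Tmbim6 (r = 0.989) and Mrvi1 (r = 0.988), a target of cGMP-dependent kinase known from platelets. Mrvi1 read 397, 160 and 443 in wildtype and 176, 101 and 196 in knockdown pools 1, 2 and 3. It was highest in the same pools as Pdgfb, which it was picked for following, and as the platelet sum. For Pdgfa they were Pnn (r = 0.989), Vps33b and Mrgbp (each r = 0.985), and for Pdgfc they were Rnft1 (r = 0.989), Mapk11 (r = 0.988) and 2310061I04Rik (r = 0.987). For the dim probe sets whose groups did not overlap, Pdgfra was closest to Lipa (r = 0.993), Gria3 (r = 0.992) and Frat2 (r = 0.990), and Pdgfd to Smarce1 (r = 0.994), Mnat1 (r = 0.993) and Tmem120a (r = 0.992).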

How the data were processed

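RNA of sorted bone marrow HSC from 3 wildtype and 3 PU.1 knockdown pools was amplified in 2 rounds and read on Affymetrix mouse arrays (Genome 430 2.0), per the labels' protocols. The authors deposited 1 processed intensity per probe set and array, on a linear scale with 264 to 409 values below 0 per array; the sources used here state neither software, background correction nor scaling. Values were floored at 1, 16 was added and the log2 taken. The array medians on that scale (6.61 to 6.75) differed by more than 0.1, so arrays were quantile normalised. limma 3.58.1 (lmFit, eBayes) under R 4.3.3 fitted the differences. Its two-sided p values were adjusted by Benjamini-Hochberg across all 44991 probe sets, with calls made under 0.05. The number of arrays limits the precision. Fits were tested on simulated data. Genes were named from the platform annotation.

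The members and lists were chosen with earlier results of these data known. Every member probe set is given. Of each pathway list, the up to 3 genes of smallest p in each direction were named. Des, Kdr and Egfl7 were named after their values were seen. For each member that was bright or whose groups did not overlap, the 3 genes with the highest correlation were named. Marker lists covered HSC, platelet, mesenchymal, pericyte, endothelial, monocyte, granulocyte and erythroid genes. Of the 5 erythroid markers measured, 3 had higher knockdown means. Samples were grouped by title, and replicate numbers were not taken to pair the pools. Alternatives covered normalisation, the added constant, filters, the model, array weights, a block and leaving out arrays. Plots were made in matplotlib 3.10.9 on Python 3.11.15.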

Additional observations from a re-analysis of the deposited data

How the results depend on the processing

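The counts past an adjusted limma p under 0.05 stayed at 0 for the member probe sets and for the pathway genes in all 16 alternatives. At an unadjusted p under 0.05 without a filter the members had 2 or 3 of 14, beside 2408 to 3958 of all 44991 probe sets. With the 40% and 60% filters they had 1 of 4 and 1 of 2, beside 2094 of 26994 and 1475 of 17996 probe sets. Over all probe sets the count was 0 with all arrays (3200 at an unadjusted p under 0.05) and 0 to 2 with 1 array left out, with 1 without wildtype pool 1, wildtype pool 3 or knockdown pool 2, and 2 without wildtype pool 2. With the replicate number as a block the counts were 0 for all probe sets (3314 at an unadjusted limma p under 0.05), members and pathway genes. Deviations of same-numbered pools correlated at 0.178, 0.061 and -0.039, and those of other pairs at -0.198 to 0.154. The labels state no pairing, and so few pools cannot decide whether same-numbered pools shared a batch. Filters that drop the dimmest 40% and 60% kept 4 and 2 of the 14 member probe sets.

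Both Pdgfrb differences stayed above 0 in every alternative that kept the probe set, at 1.69 to 2.41 in 16 for 1436970_a_at and 0.95 to 3.41 in 14 for 1417148_at. Besides those given above, signs changed for Pdgfa 1449187_at (-0.01 with the values as deposited, -0.05 without knockdown pool 3) and for Pdgfd 1456532_at with array weights (0.02). The cause was not tested. With the values as deposited the median difference of all probe sets was -0.048, in place of 0.009. Most member probe sets lie at low signal, where the added constant sets the size of a difference.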

Other observations

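On the brighter Pdgfrb probe set, 1436970_a_at, the deposited values ordered the pools of each group against Spi1. Wildtype pool 2 had the lowest Spi1 of its group (718) and the highest Pdgfrb on that probe set (289), and knockdown pool 3 had the lowest Spi1 (119) and the highest Pdgfrb (871). In the deposited values the order of all 6 arrays by this probe set was the exact reverse of that by Spi1, as it was for 72 probe sets, or 0.16% of all. Only probe sets with the knockdown pools above all wildtype pools can show this order, and these were 7.59% of all after normalisation. For them only the order within each group was open. After quantile normalisation knockdown pools 1 and 2, whose Spi1 intensities of 362 and 360 are almost equal, changed places and the order was no longer the exact reverse. The dimmer probe set, 1417148_at, did not give the exact reverse on either scale: knockdown pool 2 (59.5) lay below knockdown pool 1 (76.3). Wildtype pool 2 also stood apart in marker sums. Its HSC sum was 12367, against 6222 and 6740 in wildtype pools 1 and 3, and its granulocyte sum was 18221, against 52575 and 38147. The part of cell content in the order of the arrays was not tested. The order was noticed after the values were seen and is a description with no test.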
